A study of Mus musculus with 4 samples.

Results

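The genes described here are 10 members of the major histocompatibility complex (MHC) class I antigen presentation pathway, measured by RNA sequencing in mouse embryonic stem (ES) cells with and without the transcription factor p53. The members were chosen by name (Tap1, Tap2, Tapbp, B2m, H2-K1, H2-D1, Psmb8, Psmb9, Psmb10 and Nlrc5), and all 10 were found among 22414 named genes, on 12 of 30769 transcript rows. The lines have mixed parentage, C57BL/6 with 129Sv, and were kept below 20 passages in serum with leukemia inhibitory factor. The 4 groups are p53+/+ cells left untreated, p53+/+ cells exposed to 0.5 uM Adriamycin for 8 h, p53-/- cells left untreated and p53-/- cells exposed in the same way. Adriamycin is doxorubicin, a drug that damages DNA through topoisomerase II and so activates p53. Each group has 1 library, so no difference below has a replicate check and no test was possible. The labels do not say how the p53-/- cells were derived or how many lines were used, so a difference between genotypes and a difference between cell lines cannot be told apart.

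Class I molecules show fragments of a cell's own proteins to cytotoxic T cells. The proteasome cuts proteins into peptides, and its interferon-inducible catalytic subunits, encoded by Psmb8, Psmb9 and Psmb10, replace the constitutive ones to form the immunoproteasome. Tap1 and Tap2 pair to form the transporter that carries peptides into the endoplasmic reticulum, where tapasin (Tapbp) bridges the transporter to empty class I molecules. A class I molecule is a heavy chain, here H2-K1 or H2-D1, bound to the light chain beta-2 microglobulin (B2m). Nlrc5 is a transactivator of class I genes that acts on an assembly of RFX, CREB/ATF and NF-Y factors at their promoters. Undifferentiated ES cells are known for low class I expression, and human TAP1 has been described as a p53 target.

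Of the 10 genes 7 lie on chromosome 17 in the MHC itself, 2 on chromosome 8 (Psmb10 and Nlrc5) and 1 on chromosome 2 (B2m). Psmb9, Tap1, Psmb8 and Tap2 form 1 block of 34223 bases (chromosome 17, 34319044 to 34353266 in mm9), and only 225 bases separate Psmb9 from Tap1, which are transcribed away from each other. Promoter windows, from 250 bases before to 50 after the start, were taken from RefSeq (GRCm38.p6) and matched 8 of the 10 members by symbol. Tap2 and Nlrc5 have no entry. The windows of Tap1 and Psmb9 overlap in 275 bases, so 1 stretch stands for both. The Tap1 window is shown because its gene had the largest difference of all members. Those of B2m, H2-K1 and H2-D1 are shown because these light and heavy chain genes all stood higher in p53-/- cells. All are 5′ to 3′ on the gene's strand, and capitals mark CCAAT boxes (CCAAT, the letters bound by NF-Y), NF-kB sites and the interferon-stimulated response element (GAAA, any 2 bases, GAAA), each on either strand. The windows are chr17:34187306-34187605 (plus strand) for Tap1, chr2:122147437-122147736 (plus) for B2m, chr17:34000298-34000597 (minus) for H2-K1 and chr17:35262844-35263143 (plus) for H2-D1.
Tap1: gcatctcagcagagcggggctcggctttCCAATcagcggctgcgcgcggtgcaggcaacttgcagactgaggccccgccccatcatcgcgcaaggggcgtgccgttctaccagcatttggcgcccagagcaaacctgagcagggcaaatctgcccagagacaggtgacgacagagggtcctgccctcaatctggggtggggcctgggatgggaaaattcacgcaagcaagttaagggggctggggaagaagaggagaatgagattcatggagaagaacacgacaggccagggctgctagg
B2m: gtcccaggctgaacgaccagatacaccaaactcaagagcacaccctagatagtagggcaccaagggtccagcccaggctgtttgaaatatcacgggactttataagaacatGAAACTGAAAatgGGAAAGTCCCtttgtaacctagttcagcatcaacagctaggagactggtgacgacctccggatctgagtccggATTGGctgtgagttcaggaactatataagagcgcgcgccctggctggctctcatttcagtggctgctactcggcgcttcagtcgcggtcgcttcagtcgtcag
H2-K1: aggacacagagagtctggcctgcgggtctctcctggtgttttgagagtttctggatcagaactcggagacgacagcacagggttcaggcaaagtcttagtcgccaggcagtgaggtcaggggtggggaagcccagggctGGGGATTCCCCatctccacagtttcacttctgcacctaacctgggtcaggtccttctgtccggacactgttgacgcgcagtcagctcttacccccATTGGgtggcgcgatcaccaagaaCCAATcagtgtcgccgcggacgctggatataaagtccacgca
H2-D1: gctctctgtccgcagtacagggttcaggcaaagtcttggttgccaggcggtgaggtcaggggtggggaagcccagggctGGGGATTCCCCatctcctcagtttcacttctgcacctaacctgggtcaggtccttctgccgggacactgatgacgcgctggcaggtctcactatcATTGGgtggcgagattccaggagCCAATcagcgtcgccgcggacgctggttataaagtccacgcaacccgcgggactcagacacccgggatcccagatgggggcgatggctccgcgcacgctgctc

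A CCAAT box was present in 6 of the 8 members with a window (B2m, H2-D1, H2-K1, Psmb9, Tap1 and Tapbp), against 37.4% of 32851 windows of the same length. The core of the cyclic AMP response element (TGACG) was present in 5 of the 8, against 20.8% of all windows. Tap1 and Psmb9 hold the same CCAAT and TGACG sites in their shared stretch, so each of these sites is counted for both genes. An NF-kB site was present in B2m, H2-K1 and H2-D1, against 8.46% of all windows, and in H2-K1 and H2-D1 the matches overlap each other in the run GGGGATTCCCC. With the strict pattern used here, the interferon-stimulated response element matched in B2m only, as GAAACTGAAA, against 3.44% of all windows. Looser forms of this element were not searched for. The other windows, those of H2-K1 and H2-D1 among them, may therefore hold one without a mark. The gamma-activated site (TTCNNNGAA) matched in Psmb8 only, as TTCCCAGAA, against 8.30%. The decamer that p53 binds as a pair, held singly by 8.36% of all windows, was found in 0 of the 8, and so was the pair, held by 0.0731%. These counts describe letters in short windows and say nothing of binding elsewhere.

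The libraries hold between 3.34 and 4.32 gigabases of aligned sequence. All values below are FPKM, fragments per kilobase of transcript scaled to library size, summed over the transcripts of a gene, and differences are those of log2(FPKM + 1), a scale that makes changes of scarce RNAs look smaller. A gene counts as called once its difference reaches 1 in either direction, and 13019 genes with at least 1 FPKM in some library were compared. All 10 members passed that filter, Nlrc5 through the treated p53+/+ library alone. Tap1 passed it through the p53+/+ libraries alone and Psmb8 through the p53-/- libraries alone. Trp53, the gene of p53, summed to 216 and 165 FPKM in p53+/+ cells and to 78.6 and 76.5 FPKM in p53-/- cells, so its RNA was lower but present in the cells labelled p53-/-. Which part of the gene was deleted is not given in the labels, so this level does not check them. The p53 target Mdm2 stood at 32.6 and 257 FPKM in p53+/+ cells against 17.7 and 19.9 FPKM, and Cdkn1a went from 26.2 to 85.8 FPKM with p53 present and from 18.0 to 24.6 FPKM without it. All 10 ES cell markers stood above 1 FPKM in all 4 libraries, with a sum between 2784 and 4461 FPKM. Of 15 fibroblast markers, 4 reached 1 FPKM in each p53+/+ library and 12 to 13 in the p53-/- libraries, and their sum was 12.2 and 18.1 FPKM against 403 and 351 FPKM.

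Adriamycin was followed by much higher RNA of the peptide transporter, of 1 immunoproteasome subunit and of Nlrc5 in p53+/+ cells, and by no such difference in p53-/- cells. In the p53+/+ response 4 of the 10 members were higher by at least 1 and 0 were lower, where 11.4% and 2.78% of all genes were called. Nlrc5, 1 of the 4, passed the filter through the treated p53+/+ library alone. Its place in this count rests on the group where it is high. In the p53-/- response 0 of 10 were called in either direction, where 0.407% of genes were higher and 0.461% lower. The median difference of the members was 0.12 in p53+/+ cells, beside 0.05 over all genes, and -0.016 in p53-/- cells, beside 0.07. After quantile normalization the p53+/+ calls over all genes were 1112 higher and 591 lower in place of 1484 and 362, and those between treated genotypes 1162 and 1462 in place of 877 and 1697, with the same member calls except for Tapbp between treated genotypes. For the difference in response described below they were 1153 and 612 in place of 1358 and 430. Within the pathway the heavy chains, the light chain, tapasin and the other inducible subunits moved little.

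Tap1, which encodes 1 subunit of the transporter, stood at 1.32 FPKM before and 45.0 FPKM after Adriamycin in p53+/+ cells, and at 0.753 and 0.922 FPKM in p53-/- cells. Only the treated p53+/+ library was high, and its level was 34.1-fold that of the untreated one. By the nearest of the deposited bounds, which cover counting and assignment error only, the fold was 27.1. The difference of 4.31 was the second highest of the 13019 genes, and the p53-/- difference was 0.13. In the treated p53+/+ library Tap1 was the most abundant of the 10 members and 87.6% of genes lay below it, while in untreated p53+/+ cells 16.0% did. Nearly all of the signal lay on 1 of its 2 annotated transcripts, since the other (length 2866) had an upper bound of at most 0.0361 FPKM in every library.

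Tap2, the gene of its partner subunit, followed another pattern. It stood at 0.301 FPKM before and 3.07 FPKM after Adriamycin in p53+/+ cells and at 2.21 and 1.85 FPKM in p53-/- cells. The untreated p53+/+ library was the low one, and the other 3 stood between 1.85 and 3.07 FPKM. The p53+/+ difference was 1.65 (10.2-fold, or 5.89-fold by the nearest bounds) and the p53-/- difference -0.17. Tap2 thus stayed far below Tap1 after treatment in p53+/+ cells, where its partner stood at 45.0 FPKM, and above Tap1 in both p53-/- libraries.

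Psmb9, the inducible subunit whose gene faces Tap1, stood at 3.09 and 13.3 FPKM in p53+/+ cells and at 5.25 and 4.03 FPKM in p53-/- cells. The treated p53+/+ library was again the highest, with a difference of 1.805 (4.30-fold, or 2.49-fold by the nearest bounds) against -0.31 in p53-/- cells. Its FPKM in the treated p53+/+ library lies just above its own upper bound of 13.06 FPKM. Psmb9 and Tap1 shared their direction and their highest library, but the Tap1 difference was larger by far.

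Nlrc5, the class I transactivator, was near 0 in 3 libraries. It stood at 0.0647 FPKM before and 2.82 FPKM after Adriamycin in p53+/+ cells and at 0.1004 and 0.0972 FPKM in p53-/- cells. The treated p53+/+ library held 102 kilobases of aligned sequence on this gene, against 1.98 to 2.97 kilobases in the others. The level was 43.5-fold that of untreated p53+/+ cells and 25.5-fold by the nearest bounds, while the difference was 1.84 because the scale compresses low values. Even at its highest Nlrc5 was a scarce RNA, with 21.5% of genes below it in the treated p53+/+ library.

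RNA of the class I heavy and light chains and of tapasin did not follow that of Nlrc5. H2-K1 stood at 13.5 FPKM before and 11.7 FPKM after Adriamycin in p53+/+ cells, which is -0.18 on the log2 scale, and H2-D1 at 9.42 and 8.17 FPKM, a difference of -0.19. B2m went from 8.55 to 10.2 FPKM, a difference of 0.23, and Tapbp from 10.9 to 8.48 FPKM, a difference of -0.33. None of these reached 1 in either direction, and the deposited bounds of treated and untreated p53+/+ cells overlapped for H2-K1, H2-D1, B2m and the more abundant of the Tapbp transcripts, but not for the other. In treated p53+/+ cells Tap1 therefore stood above both heavy chains and B2m, whereas in the untreated cells it stood below them.

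**Figure D1:**
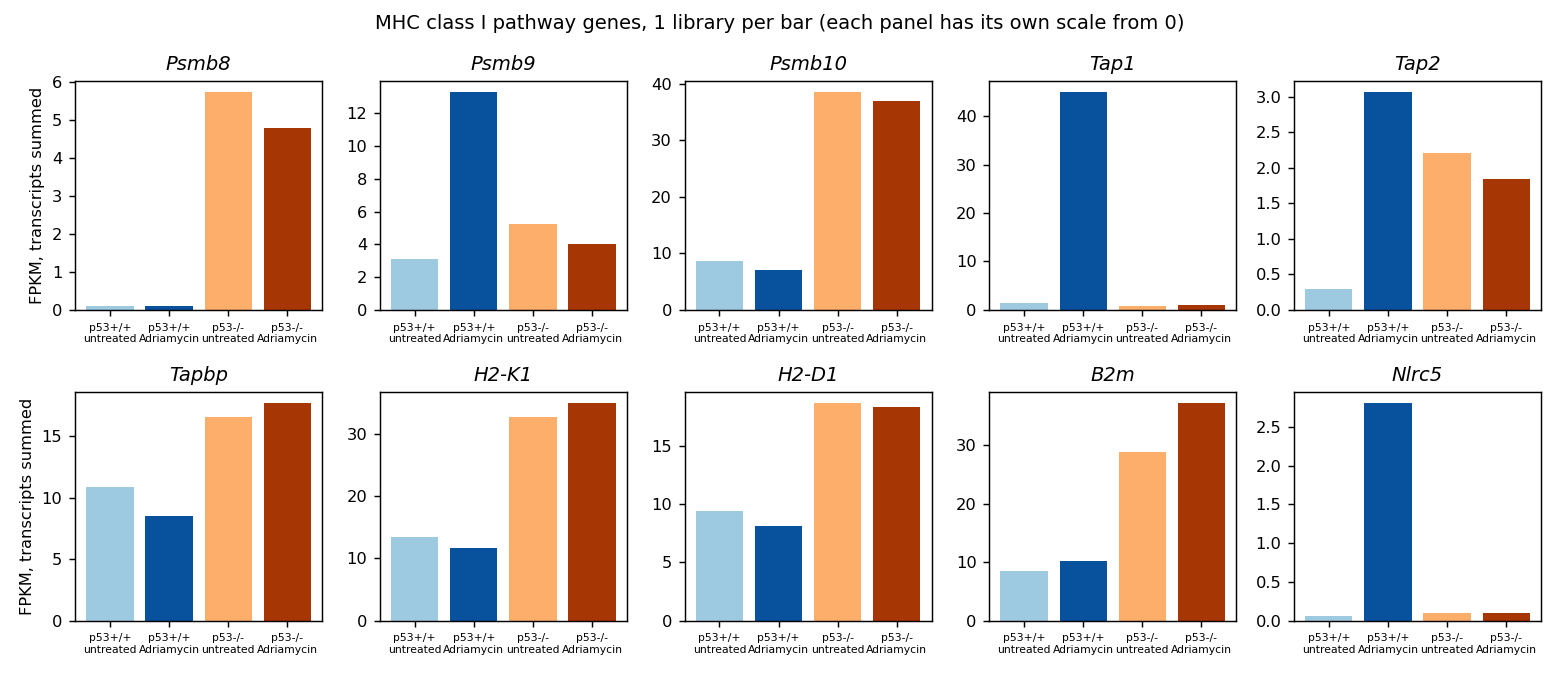
FPKM of each member (y axis, transcripts summed, own scale from 0) in the 4 libraries (x axis), 1 library per bar and no error bars because no group has a replicate. Tap1, Psmb9 and Nlrc5 are highest in treated p53+/+ cells (45.0, 13.3 and 2.82 FPKM). Psmb8, Psmb10, H2-K1, H2-D1, B2m and Tapbp are higher in both p53-/- libraries than in both p53+/+ libraries. The share of all genes separated in this way was not counted.

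B2m, H2-K1, Psmb8 and Psmb10 differed by at least 1 between genotypes in both conditions and by less than 1 with Adriamycin in either genotype. In untreated cells 5 of the 10 (Tap2, B2m, H2-K1, Psmb8 and Psmb10) were higher in p53-/- than in p53+/+ cells by at least 1 and 0 were lower, where 3.52% and 3.14% of all genes were called. The median difference of the members was 1.07, beside -0.046 over all genes. Tap2 is in this count through its low untreated p53+/+ level, and its difference between treated genotypes was -0.51. Psmb8 passed the filter through the p53-/- libraries alone. After Adriamycin 5 were higher (B2m, H2-K1, H2-D1, Psmb8 and Psmb10) and 3 lower (Tap1, Psmb9 and Nlrc5), where 6.74% and 13.0% of genes were called, with a median of 1.03 beside -0.016. Tap1 and Nlrc5 passed the filter through p53+/+ libraries alone, so their place in this count rests on the group where they are high. These comparisons share libraries with the responses above, so their values are not separate evidence.

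Psmb8, the inducible counterpart of Psmb5, was almost absent from p53+/+ cells. It stood at 0.106 FPKM before and 0.109 FPKM after Adriamycin in p53+/+ cells, on about 0.5 kilobases of aligned sequence each, and at 5.73 and 4.78 FPKM in p53-/- cells. Both p53-/- libraries lay above both p53+/+ libraries. The nearest bounds put untreated p53-/- cells 20.0-fold higher and treated ones 15.7-fold higher, and the differences were 2.61 and 2.38. Psmb8 lies between Tap1 and Tap2 and had a p53+/+ response of 0.0042.

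Psmb10, the inducible counterpart of Psmb7, stood at 8.59 and 7.01 FPKM in p53+/+ cells and at 38.5 and 36.9 FPKM in p53-/- cells. The genotypes did not overlap, with 4.49-fold more in untreated and 5.27-fold more in treated p53-/- cells. It lies on chromosome 8, away from the MHC. Its FPKM in both p53-/- libraries exceeded the upper bounds of 38.2 and 36.2 FPKM by little.

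RNA of B2m, H2-K1 and H2-D1 was more abundant in p53-/- than in p53+/+ cells in both conditions. B2m stood at 28.9 FPKM before and 37.3 FPKM after Adriamycin in p53-/- cells, 3.38-fold and 3.65-fold the p53+/+ levels, or 2.52-fold and 2.55-fold by the nearest bounds. Its FPKM lies above its own upper bound in both p53-/- libraries (26.6 and 33.2 FPKM) and in untreated p53+/+ cells (8.31 FPKM). H2-K1 stood at 32.7 and 35.1 FPKM there, 2.43-fold and 2.99-fold the p53+/+ levels, or 2.02-fold and 2.41-fold by the nearest bounds. Both p53-/- values of H2-K1 also exceed their upper bounds, of 32.6 and 34.5 FPKM. H2-D1 stood at 18.7 and 18.3 FPKM, 1.99-fold and 2.25-fold, and its untreated difference of 0.92 fell short of 1. Tapbp stood at 16.6 and 17.7 FPKM, with differences of 0.56 and 0.98 that did not reach 1. For these 4 genes, as for Psmb8 and Psmb10, both p53-/- libraries lay above both p53+/+ libraries. The share of all genes separated in this way was not counted, so the separation is not read as particular to these members.

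Sequence shared between class I genes limits how exactly reads can be placed. Of the 50-base stretches of the H2-K1 transcript, 8.79% also occur in a transcript of another gene in GENCODE M21, most often H2-D1, and of those of H2-D1 14.3% do. For B2m, Psmb8, Psmb9, Psmb10 and Nlrc5 the share was 0, for Tap1 and Tap2 it was 0.861% and 0.737%, and for Tapbp 2.00%. Heavy chains also differ between mouse strains, and which alleles these cells of mixed background carry was not analysed here. The fibroblast markers moved with the same genotype contrast. Of the 13 that passed the filter 11 were higher in untreated p53-/- cells and 10 in treated ones, where 3.52% and 6.74% of all genes were. Col1a2, Col3a1, Dcn, Postn, S100a4, Twist2, Lox and Mgp passed through the p53-/- libraries alone. Their place in this count therefore rests on the group where they are high. Col3a1, Fap, Dcn, Lum and Postn were listed at 0 in both p53+/+ libraries. The part of the fibroblast markers in the class I values was not tested. In bulk RNA a larger share of cells of a type cannot be told apart from more RNA per cell. Of 12 haematopoietic markers, 2 to 4 reached 1 FPKM in a library, the sum lay between 12.1 and 20.9 FPKM, and Ptprc was listed at 0 in 3 of the 4 libraries.

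**Figure D2:**
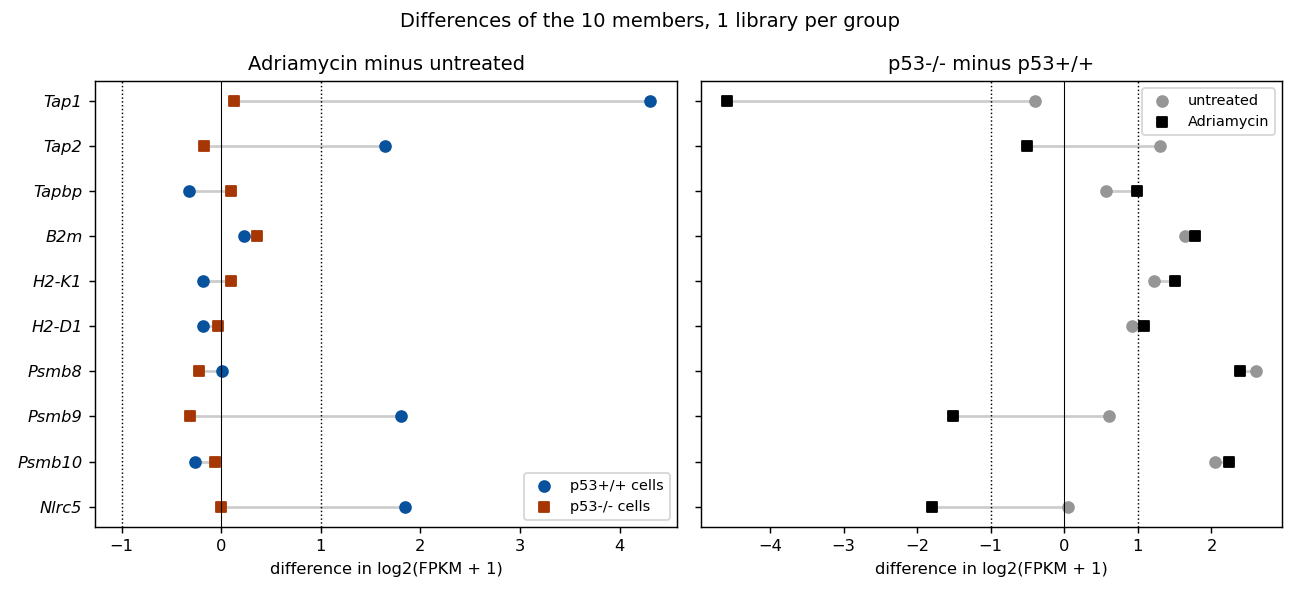
Differences in log2(FPKM + 1) (x axis) for the 10 members (y axis): Adriamycin minus untreated in each genotype on the left, p53-/- minus p53+/+ in each condition on the right, 1 library per group, with dotted lines at -1 and 1. On the left Tap1, Tap2, Psmb9 and Nlrc5 lie past 1 in p53+/+ cells only, and on the right B2m, H2-K1, Psmb8 and Psmb10 lie past 1 in both conditions.

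The responses of the genotypes were subtracted from each other to give the difference in response. It was at least 1 in Tap1 (4.18), Psmb9 (2.12), Nlrc5 (1.85) and Tap2 (1.82), which is 4 of 10 members where 10.4% of genes were called, and at most -1 in 0 of 10, where 3.30% were. The other 6 lay between -0.42 (Tapbp) and 0.22 (Psmb8). Tap1 ranked 3 of 13019 genes in this difference. The difference in response contains the p53+/+ response and is no separate evidence for it. Nlrc5 is in this count through the treated p53+/+ library alone, where it is high.

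The 3 immunoproteasome subunits thus parted. Relative to its constitutive counterpart Psmb6, Psmb9 made up 1.32% and 6.35% of the FPKM in untreated and treated p53+/+ cells and 1.24% and 1.07% in p53-/- cells. Psmb10 made up 3.77% and 3.69% of Psmb7 in p53+/+ cells and 16.4% and 16.1% in p53-/- cells. Psmb8 made up 0.0867% and 0.111% of Psmb5 in p53+/+ cells and 3.73% and 3.80% in p53-/- cells. In every library the constitutive subunit was the major one. Among 19 measured subunits and activators of the proteasome, 0 were called in the p53+/+ response (18 of 19 lay below 0, median -0.31) and 0 between untreated genotypes. Over all genes 11.4% were higher and 2.78% lower in the first comparison, and 3.52% and 3.14% in the second. In p53-/- cells 3 were lower with Adriamycin, Psma3 (17.9 to 5.47 FPKM), Psme2 (2.60 to 0.500 FPKM) and Psma5, where 0.461% of all genes were.

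**Figure D3:**
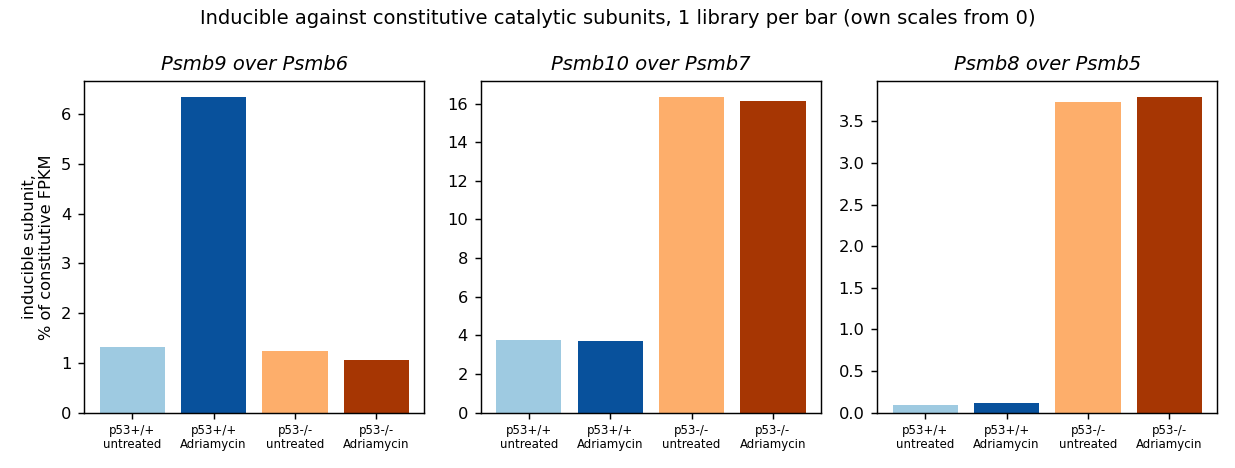
FPKM of each interferon-inducible catalytic subunit as a percent of its constitutive counterpart (y axis, own scale from 0) in the 4 libraries (x axis), 1 library per bar. Psmb9 over Psmb6 is highest in treated p53+/+ cells (6.35%), whereas Psmb10 over Psmb7 and Psmb8 over Psmb5 are higher in both p53-/- libraries (16.1% or more and 3.73% or more).

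Genes around the Tap1 block were examined because 4 members lie there. Within 250 kb of either end lay 32 named genes, of which 20 passed the filter. In the p53+/+ response 4 of the 20 were higher and 0 lower, where 11.4% and 2.78% of all genes were called. These were Tap1, Psmb9 and Tap2 of the block itself and the class II beta chain gene H2-Eb1. H2-Eb1 went from 1.01 to 12.3 FPKM, against 0.881 and 1.46 FPKM in the p53-/- libraries. Without the block 1 of the other 16 was higher, and their median was 0.00081. Brd2, H2-DMa and H2-DMb1 between H2-K1 and Psmb9 differed by -0.32, -0.07 and 0.63. In untreated p53-/- against p53+/+ cells 3 of the 20 were higher, the members H2-K1, Psmb8 and Tap2, where 3.52% of all genes were. In the class II list as a whole 5 of 12 genes passed the filter, and H2-Eb1 alone was called in the p53+/+ response.

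**Figure D4:**
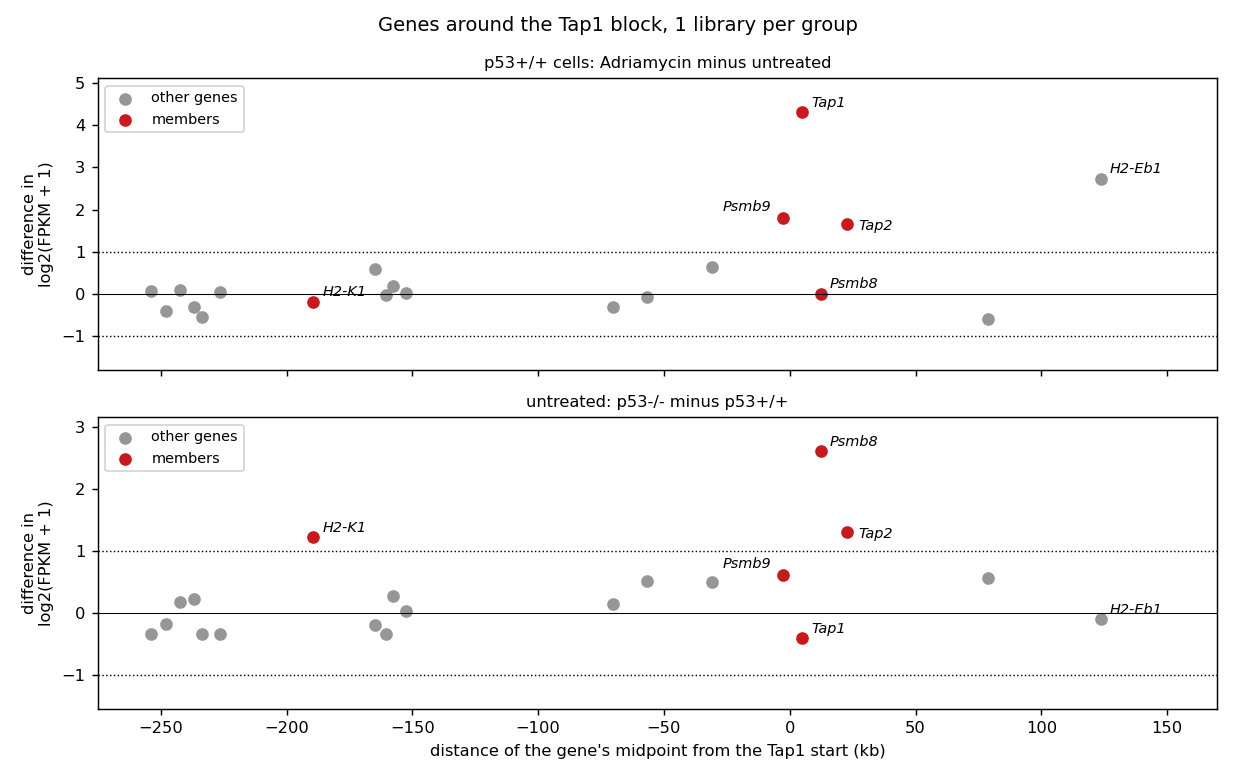
Difference in log2(FPKM + 1) (y axis) of the 20 genes past the filter within 250 kb of the Tap1 block against the distance of their midpoints from the Tap1 start in kb (x axis), members in red, for the p53+/+ response (top) and for untreated p53-/- minus p53+/+ cells (bottom), 1 library per group. Tap1, Psmb9, Tap2 and H2-Eb1 lie above 1 at the top, and Psmb8, Tap2 and H2-K1 at the bottom.

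The rest of the loading machinery differed little. Of 19 genes for peptide trimming and loading 0 were called in the p53+/+ response (median -0.1), 0 in the p53-/- response and 0 between untreated genotypes. Over all genes 11.4%, 0.407% and 3.52% were higher in these comparisons, and 2.78%, 0.461% and 3.14% lower. The chaperones stayed abundant: calreticulin (Calr) went from 273 to 207 FPKM and Pdia3 from 111 to 142 FPKM in p53+/+ cells. Erap1, the aminopeptidase that trims peptides to length, was scarce, at 0.400 and 0.306 FPKM in p53+/+ cells and at 1.15 and 1.21 FPKM in p53-/- cells. Between treated genotypes 1 of the 19 was higher in p53-/- cells, Thop1, and 1 lower, Lnpep. Over all genes 6.74% were higher and 13.0% lower there.

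Other class I heavy chains were scarce. Of 27 that were found, 12 passed the filter. In untreated p53-/- cells 3 of these were higher (H2-Q4, H2-Q7 and H2-Q8) and 1 lower (H2-M5), where 3.52% and 3.14% of all genes were called. The median was 0.31, and H2-Q8 passed the filter through the untreated p53-/- library alone. H2-Q4 stood at 2.36 and 1.51 FPKM in p53+/+ cells and at 6.03 and 6.48 FPKM in p53-/- cells. H2-M5 stood at 19.8 and 10.1 FPKM in p53+/+ cells and at 8.74 and 7.15 FPKM in p53-/- cells. With H2-M5, 4 of the 12 lay below 0 between untreated genotypes and 8 above. The H2-Q6, H2-Q7, H2-Q8 and H2-Q9 rows are near-identical copies and their single values are uncertain. In the p53+/+ response 1 of the 12 was called, H2-Q7, from 0.00414 to 1.02 FPKM, where 11.4% of all genes were higher.

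Among regulators of class I transcription, Socs1, a feedback inhibitor of cytokine signalling, was higher in the p53+/+ response, at 3.30 and 9.34 FPKM in p53+/+ cells against 8.57 and 9.04 FPKM in the p53-/- libraries. Irf1, an activator of Tap1, Psmb9 and other class I pathway genes, was higher in both p53-/- libraries, at 16.3 and 8.21 FPKM in p53+/+ cells and at 43.7 and 48.2 FPKM in p53-/- cells. Its genotype differences were 1.37 and 2.42. Ezh2, the catalytic subunit of Polycomb repressive complex 2, went from 79.8 to 37.2 FPKM with p53 present and from 50.3 to 53.3 FPKM without it. Relb and Rfxap were higher in p53-/- cells by less than 1, but the list as a whole was split. Of its 29 genes past the filter, 14 lay above 0 and 15 below between untreated genotypes. Between treated genotypes 18 lay above 0 and 11 below. The interferon genes Ifng and Ifnb1 were listed at 0 in all 4 libraries.

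The genes whose pattern over the 4 libraries came closest to Tap1 were Matn1, Ltb4r2, Cpz, Apol8 and Slc4a11. Likeness was the Euclidean distance between log2(FPKM + 1) values centred on each gene's own mean, and these distances ran from 0.215 to 0.433. Matn1, a cartilage matrix protein gene, stood at 0.443 and 22.7 FPKM in p53+/+ cells and at 0.0266 and 0.0242 FPKM in p53-/- cells. With 4 values per gene this is a description of shape only.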

How the data were processed

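RNA was sequenced from 4 cultures, 1 library per group, so no SD, test or p-value is given. The authors deposited 1 table per library with FPKM, its lower and upper bound, read coverage and transcript length, in the column layout of Cufflinks, per the file headers. CASAVA 1.8.1, TopHat2 2.0.5, TopHat, Cufflinks and the build mm9 are named per the submitters' processing notes, with no role or order. For Cufflinks the version, and for all steps the annotation, is not given in the sources used here. Beside poly(A) RNA, the labels' protocols name an exome enrichment kit, so capture could affect which transcripts were sampled. Coverage, a signal the authors deposited as mean read depth, was multiplied by length to give aligned bases.

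Rows were named from RefSeq (GRCm38.p6, 30227 rows) and GENCODE M21 (180 rows), and 362 were unnamed. That build was used for names and sequences only, and positions are those of the files in mm9, counted from 1. Short RNA genes (796 rows) were left out. FPKM were summed per gene, 1 FPKM was added before log2, genes needed at least 1 FPKM in a library, and a difference of at least 1 was called. The members and lists were chosen with earlier results of these data known. Named genes were the members, the p53 checks, list members past 1, genes within 250 kb of the Tap1 block and the 5 genes closest to Tap1. Erap1, Calr, Pdia3, Relb, Rfxap, Brd2, H2-DMa, H2-DMb1, Ifng and Ifnb1 were named after their values were seen. The libraries hold 3.34 to 4.32 gigabases of aligned sequence. The bounds cover counting and assignment error only, and between 1528 and 2040 rows per library with status OK lie outside their own bounds. The calculation was tested on simulated data for the p53+/+ response over 11596 genes. There 100 of 100 genes raised 4-fold and 100 of 100 lowered 4-fold were recovered and 0 others were called. The changed genes all had at least 5 FPKM in untreated p53+/+ cells. Tap1, Tap2, Psmb9, Nlrc5 and Psmb8 stood below that level there, so recovery at their levels was not tested. The alternatives were other pseudocounts, filters, scalings and steps, the main transcript, rows by status or bounds, and coverage in place of FPKM, the last chosen after seeing the data. Python 3.11.15, pandas 2.3.3, numpy 2.4.6 and matplotlib 3.10.9 were used. Part of the list of regulators is not reported here.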

Additional observations from a re-analysis of the deposited data

Results flagged for a closer look

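In 3 members the responses of the genotypes had opposite signs and differed by at least 1. Psmb9 differed by 1.805 in p53+/+ and -0.31 in p53-/- cells, a difference in response of 2.12. Nlrc5 differed by 1.84 and -0.0041, which gives 1.85, and Tap2 by 1.65 and -0.17, which gives 1.82. With 1 library per group these differences were not tested, and the p53-/- values lie close to 0.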

How the results depend on the processing

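Over the single member differences, 556 of the values under an alternative kept their state, called or not called. A further 8 lost a call, 6 gained one and 0 turned. Without a filter (50 values), by status (50), with a filter of 5 FPKM (40) and within own bounds (30) the retained values equalled the main ones. These could not change, so the total overstates how much was put to the test. Of the 6 gains, 3 were Tapbp between treated genotypes passing 1, and 3 were values below 1, unchanged, that passed the lower step of 1.5-fold (H2-D1 and Psmb9 between untreated and Tapbp between treated genotypes). All 8 losses came with a pseudocount of 5 FPKM, in Tap2, Nlrc5, H2-D1 and Psmb8. With that pseudocount 2 members were higher in the p53+/+ response, 2 in the response difference and 3 between treated genotypes, and with a filter of 5 FPKM, which Tap2 and Nlrc5 fail, 2 and 2 of 8 were in the first 2 of these. Over rows within their own bounds 6 members were measured, and 2 were higher between untreated and 2 between treated genotypes. Tapbp passed 1 between treated genotypes at a pseudocount of 0.1 FPKM (1.06) and after upper quartile scaling (1.001) or quantile normalization (1.12).

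Over all genes, quantile normalization moved the median of the p53+/+ response from 0.05 to -0.10 and its calls from 1484 higher and 362 lower to 1112 and 591. It moved those between treated genotypes from 877 and 1697 to 1162 and 1462, and those of the response difference from 1358 and 430 to 1153 and 612. With a pseudocount of 5 FPKM the p53+/+ response had 629 and 153 calls, the p53-/- response 20 and 31 (from 53 and 60), untreated genotypes 136 and 122 (from 458 and 409), treated genotypes 337 and 795, and the response difference 612 and 160. With 0.1 FPKM they were 2157 and 614, 192 and 97, 855 and 886, 1289 and 2322, and 1876 and 760 in the same order. At a 1.5-fold step they were 2828 and 1468, 211 and 193, 1341 and 1433, 2308 and 3051, and 2586 and 1798. The p53-/- response had 29 and 54 calls with a filter of 5 FPKM, 41 and 31 over rows within their own bounds and 79 and 91 by main transcript, and untreated genotypes had 290 higher with that filter. No paired analysis was possible because each group has 1 library. Leaving out a replicate was likewise not run.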

Other observations

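Of 26 interferon-stimulated genes 15 passed the filter. Of these, 8 were higher in untreated p53-/- than p53+/+ cells and 0 lower, where 3.52% and 3.14% of all genes were called. Their median was 1.01 beside -0.046 over all genes. Gbp2, Gbp3, Ifi27, Irgm1 and Isg15 passed through the p53-/- libraries alone, so their place in this count rests on the group where they are high. Gbp2, a guanylate-binding GTPase gene, stood at 0.129 and 0.15 FPKM in p53+/+ cells and at 6.66 and 7.50 FPKM in p53-/- cells, and Irgm1 at 0.591 and 0.278 against 4.15 and 4.91 FPKM. In the p53+/+ response 4 of the 15 were higher (Cxcl10, Igtp, Xaf1 and Ifi35) and 1 lower (Ddx58), with a median of 0.027. Over all genes 11.4% were higher and 2.78% lower. The chemokine gene Cxcl10 went from 0.161 to 5.66 FPKM there and from 1.64 to 2.86 FPKM in p53-/- cells. Ddx58, which encodes the RNA sensor RIG-I, went from 6.99 to 1.48 FPKM and from 6.97 to 8.19 FPKM. In the p53-/- response 0 of the 15 were called.

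Of the class I-like molecules 5 passed the filter. Procr, the endothelial protein C receptor gene, was higher in the p53+/+ response, from 2.28 to 6.35 FPKM. Raet1d and Raet1e, which encode ligands of the natural killer cell receptor NKG2D, were higher in the p53-/- response, from 1.08 to 3.59 FPKM and from 0.394 to 2.01 FPKM, and belong to a family of similar copies whose single values are uncertain.

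Among the other cell type lists, 4 of 6 primitive endoderm markers past the filter were lower and 3 of 5 trophoblast markers higher in untreated p53-/- cells. Over all genes 3.14% were lower and 3.52% higher. Gata4, Gata6 and Sox7 passed the filter through the p53+/+ libraries alone. The endothelial list had 3 genes past the filter, of which Tek was higher in the p53+/+ response. Of 10 ES cell markers Nanog and Zfp42 were lower in that response. Over all genes 11.4% were higher and 2.78% lower in it.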
